A study of Caenorhabditis elegans with 2 samples.

Results

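The vitellogenin genes of the nematode Caenorhabditis elegans, vit-1 to vit-6, were examined for sites of the zinc finger protein BED-1 mapped by chromatin immunoprecipitation with sequencing (ChIP-seq). The members were all 6 genes of the family, named by symbol, out of 19973 protein-coding genes. At each of them every peak was taken whose summit lay inside the annotated gene or within 1000 bases of its start. This gave 64 of the 120637 peaks that the authors had ranked from both replicates together. The 6 windows added up to 37236 bases.

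Vitellogenins are large lipid-carrying proteins that form the yolk. In the adult hermaphrodite they are made in the intestine, secreted into the body cavity and taken up by growing oocytes through the receptor RME-2. Their genes are among the most strongly transcribed of the adult intestine, and their short promoters carry sequence elements bound by GATA factors and by other regulators of adult gene expression. The zinc finger of BED-1 is of the BED type, which binds DNA and is shared by chromatin proteins and transposases.

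The worms were of strain RW12201, in which CRISPR editing had put a TY1, EGFP and 3xFLAG tag into the endogenous bed-1 gene on chromosome V. Whole animals were collected as young adults at 63 hours, after bleaching and starvation of the first larval stage, and an anti-GFP antibody was used to pull down the tagged protein. Both samples were biological replicates of this 1 group, so all animals carried the tag and no other genotype, stage or treatment was compared. A control experiment that the labels list as possible was not analysed here. In whole animals a site used in few cells and a site weakly bound in many cells cannot be told apart.

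The authors deposited ranked lists of all candidate peaks and shorter final lists, all based on the irreproducible discovery rate (IDR). The IDR is low where a peak ranks both high and alike in a pair of compared peak sets. A peak with like values at a low rank can thus have a high IDR. The larger final list from both replicates is called the main list here and held 589 peaks. The other is named conservative by the authors and held 523. The replicates' own final lists held 91 and 99 peaks. The signal of a peak is the authors' own value on a scale not given in the sources used here, so comparisons stay within a list. It had a median of 23.5 over all ranked peaks (interquartile range 14.9 to 33.1) and of 77.9 in the main list. The files hold no read counts, so the depth behind a value is unknown. With 1 group of 2 samples no test was run, and values are set beside the same values over all other protein-coding genes or all ranked peaks.

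Coordinates are in build ce11, also called WBcel235. The gene vit-1 lies on the plus strand at chrX:7727889-7733168, vit-2 on the plus strand at chrX:5101042-5106169, and vit-5 on the plus strand at chrX:3403471-3408603. The neighbours vit-4 and vit-3 lie on the minus strand at chrX:3558769-3563965 and chrX:3567355-3572549. The gene vit-6 is the only member off the X chromosome and lies on the plus strand at chrIV:8261157-8266459. Each gene has 5 or 6 exons and between 4809 and 4950 coding bases.

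The sequences under the sites that reached a final list are shown here, with that of vit-1 at a matching place. A place on a final list rests on the IDR, so such a peak need not be the strongest of its gene. The summit of the main-list peak of vit-2 lay in exon 1, 108 bases into the gene. The nearest counterpart in vit-1 lay 114 bases into that gene and reached no final list. The 200 bases around both summits, aligned base by base, are shown from the RefSeq genome of WBcel235 on the plus strand (chrX:5101050-5101249 for vit-2 and chrX:7727908-7728107 for vit-1), with the 35 bases that differ in capitals.
vit-2 start window: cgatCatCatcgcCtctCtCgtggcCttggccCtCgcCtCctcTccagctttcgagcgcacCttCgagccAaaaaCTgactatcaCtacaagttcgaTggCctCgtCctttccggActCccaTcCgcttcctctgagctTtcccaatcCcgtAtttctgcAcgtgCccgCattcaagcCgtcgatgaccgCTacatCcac
vit-1 start window: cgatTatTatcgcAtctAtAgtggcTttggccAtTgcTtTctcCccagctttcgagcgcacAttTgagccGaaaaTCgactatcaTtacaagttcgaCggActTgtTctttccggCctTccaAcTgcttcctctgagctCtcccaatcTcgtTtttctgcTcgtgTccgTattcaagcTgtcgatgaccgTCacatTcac
The windows were 82.5% identical, and both consisted of sequence found once in the genome. Their GC content was 57% in vit-2 and 48% in vit-1. The only other summit on a final list lay 1388 bases into vit-6, in exon 3. Its 200 bases (chrIV:8262445-8262644, plus strand) are shown with the 11 central bases in capitals.
vit-6 conservative summit: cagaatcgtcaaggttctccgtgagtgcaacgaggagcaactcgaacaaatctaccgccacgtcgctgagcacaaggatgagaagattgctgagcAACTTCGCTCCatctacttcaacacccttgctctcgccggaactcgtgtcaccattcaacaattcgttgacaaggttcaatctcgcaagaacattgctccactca

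Promoters were read from 250 bases upstream of the annotated start to the 50 bases that begin with it, on the strand of the gene. The vitellogenin promoter elements known as VPE1 (TGTCAAT) and VPE2 (CTGATAA, which holds a GATA site) were sought on both strands and do not overlap each other. 4 promoters are shown, with every match in capitals: those of vit-2 and vit-6, whose genes had the strongest peaks, and those of vit-3 and vit-4, whose genes had the weakest. They were read from chrX:5100792-5101091 (plus), chrIV:8260907-8261206 (plus), chrX:3572500-3572799 (minus) and chrX:3563916-3564215 (minus).
vit-2 promoter: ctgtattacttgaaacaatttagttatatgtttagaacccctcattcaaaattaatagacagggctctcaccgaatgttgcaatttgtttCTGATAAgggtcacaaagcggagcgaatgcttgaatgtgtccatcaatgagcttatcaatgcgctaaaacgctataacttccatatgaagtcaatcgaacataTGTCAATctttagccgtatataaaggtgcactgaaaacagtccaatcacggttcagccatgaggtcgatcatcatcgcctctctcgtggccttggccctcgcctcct
vit-6 promoter: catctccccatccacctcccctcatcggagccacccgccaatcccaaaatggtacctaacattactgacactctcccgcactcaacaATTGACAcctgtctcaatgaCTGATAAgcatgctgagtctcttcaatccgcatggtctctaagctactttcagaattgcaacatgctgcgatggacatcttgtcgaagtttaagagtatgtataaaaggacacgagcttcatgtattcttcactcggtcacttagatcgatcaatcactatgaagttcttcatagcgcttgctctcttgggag
vit-3 promoter: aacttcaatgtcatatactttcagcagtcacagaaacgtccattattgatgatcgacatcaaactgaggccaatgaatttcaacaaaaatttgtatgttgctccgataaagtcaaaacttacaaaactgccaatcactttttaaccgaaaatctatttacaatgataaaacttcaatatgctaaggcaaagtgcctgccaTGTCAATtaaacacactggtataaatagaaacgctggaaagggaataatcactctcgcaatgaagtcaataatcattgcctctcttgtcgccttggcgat
vit-4 promoter: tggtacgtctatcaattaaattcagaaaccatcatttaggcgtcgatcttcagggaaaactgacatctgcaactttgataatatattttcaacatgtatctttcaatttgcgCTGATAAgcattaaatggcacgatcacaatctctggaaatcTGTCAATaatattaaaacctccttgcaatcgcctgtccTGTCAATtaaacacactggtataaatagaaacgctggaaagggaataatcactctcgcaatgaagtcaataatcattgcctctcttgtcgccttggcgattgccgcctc
VPE1 stood in all 6 vitellogenin promoters and in 5.77% of the promoters of all protein-coding genes. VPE2 stood in 5 of the 6, with vit-3 as the exception, against 8.15% of all promoters. Both elements stood in 5 of the 6 vitellogenin promoters and in 0.506% of all promoters. Since both are known from vitellogenin promoters, their presence there was given beforehand and is no result of these data. The first base of the closest VPE1 lay 57 bases upstream of the start in vit-2, 163 in vit-6, 50 in vit-3 and 59 in vit-4. The promoters of vit-3 and vit-4 share an unbroken run of at least 100 bases that begins with this VPE1. The run reaches the end of the vit-3 sequence read here, so its full length was not measured. A short read from it could come from either gene. A match is a description of the letters and not a mapped site.

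Few of the ranked BED-1 peaks at the vitellogenins had a VPE element nearby. Within 100 bases of the summit, VPE1 was found at 6 of the 64 vitellogenin peaks and at 4.34% of all ranked peaks. VPE2 was found at 1 of the 64 and at 3.60% of all ranked peaks. Of the 64 summits, 6 lay upstream of a start, which is 1.00 per kb of upstream window against 1.86 per kb in the gene bodies. The 6 upstream summits had signals from 6.79 at vit-4 to 51.5 at vit-6.

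BED-1 signal differed widely between the 6 genes, and vit-2 and vit-6 stood highest. The strongest ranked peak had a signal of 79.0 at vit-2, 75.1 at vit-6, 53.3 at vit-5, 38.4 at vit-1, 33.4 at vit-4 and 27.5 at vit-3, against a median of 38.3 and an upper quartile of 47.6 over the other 19967 protein-coding genes. Thus vit-2, vit-6 and vit-5 lay above the upper quartile, vit-1 at the median, and vit-4 and vit-3 below it. The share of other protein-coding genes with a weaker strongest peak was 98.8% for vit-2, 98.4% for vit-6, 85.9% for vit-5, 50.3% for vit-1, 35.7% for vit-4 and 21.5% for vit-3. The vitellogenin genes are longer than most, and a longer window holds more peaks. Among the 2251 to 2350 genes whose window was within 20% of a member's own, the same shares were 98.3% for vit-2, 97.8% for vit-6, 79.4% for vit-5, 33.6% for vit-1, 19.4% for vit-4 and 9.45% for vit-3. The order of the 6 genes comes from their signals, so it could hardly differ between both sets of genes.

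**Figure D1:**
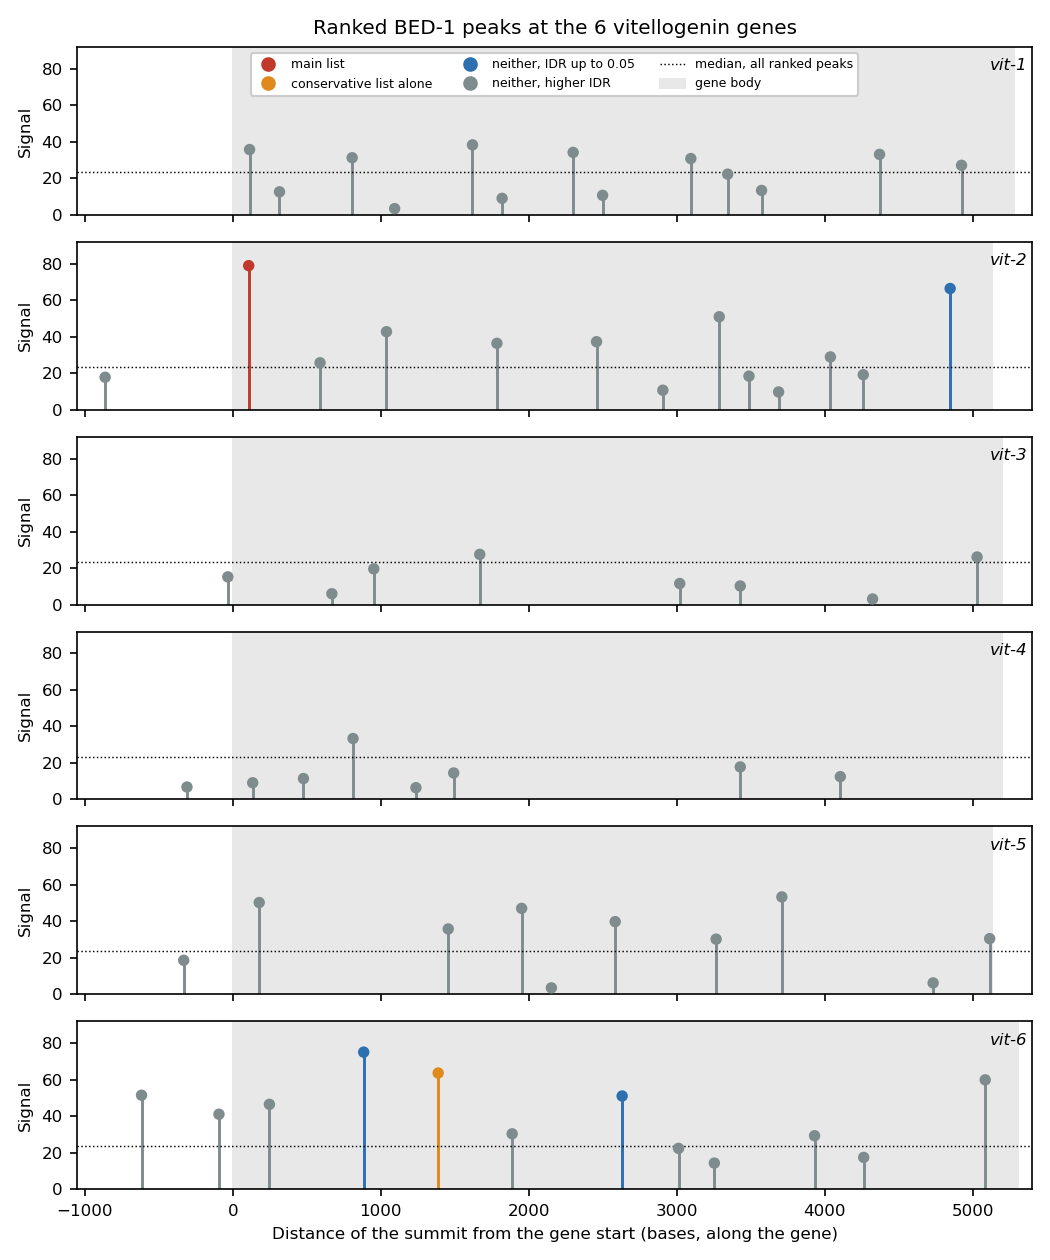
Each panel shows 1 vitellogenin gene, with the distance of a peak summit from the gene start in bases along the horizontal axis and the authors' signal on the vertical axis. Each stem is 1 of the 64 ranked peaks, coloured by the list it reached, the grey band is the gene body, and the dotted line is the median of all ranked peaks, 23.5. The red stem of vit-2 at 108 bases is the 1 main-list peak, and only 2 of 8 stems at vit-3 and 1 of 8 at vit-4 pass the dotted line.

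In the main list, 1 of the 6 vitellogenin genes, vit-2, had a peak, against 2.34% of protein-coding genes. In the conservative list 2 of the 6 had one, vit-2 and vit-6, against 2.11%. Neither replicate's own final list held a peak at any of the 6 genes, against 0.371% of protein-coding genes for replicate 1 and 0.36% for replicate 2. Of the 64 vitellogenin peaks, 1 was in the main list, against 0.488% of all ranked peaks, and 5 had an IDR of 0.05 or less, against 2.46% of all ranked peaks. Those 5 peaks belonged to vit-2 and vit-6 alone. With counts this small, 1 gene or 1 peak decides each share. Apart from vit-2, the nearest main-list summits lay 31975 bases from the start of vit-5, 59104 from that of vit-3, 66520 from that of vit-1, 67688 from that of vit-4 and 116589 from that of vit-6.

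The first-exon peak of vit-2 ranked in the middle of the main list. It spans chrX:5101020-5101279 with its summit at 5101150, and had a signal of 79.0, a score of 1000 and an IDR of 0.00297. By signal it stood 277th of the 589 main-list peaks and 271st of the 523 conservative peaks, with an IDR of 0.00395 in the conservative comparison. In the replicates' own ranked lists its signal was 33.1 in replicate 1 and 50.3 in replicate 2. The IDR there was 0.280 in replicate 1 and 0.0457 in replicate 2, both above the 0.01 that marks the final lists. The peak therefore entered the final lists through both replicates together and not through either alone.

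The vitellogenin peaks just outside the main list came from the other end of vit-2 and from exon 3 of vit-6. At vit-2 the second peak had its summit 4847 bases into the gene, in its last exon, exon 5, with a signal of 66.4 and an IDR of 0.0101. It reached a score of 828, where main-list scores began at 830. Its signal was 43.7 in replicate 1 and 29.0 in replicate 2. At vit-6 the peak 1388 bases into the gene had a signal of 63.6, a score of 829 and an IDR a little above 0.01 in the comparison behind the main list. In the comparison behind the conservative list its IDR was 0.00731 and its score 886, and it stood 491st of 523 by signal there. This peak had 35.0 in replicate 1 and 37.0 in replicate 2, the closest pair of values among these 5 peaks. A stronger vit-6 peak, 885 bases into the gene, had a signal of 75.1 with an IDR of 0.0182, and its replicate values were 44.4 in replicate 1 and 28.2 in replicate 2. The last of the 5, 2631 bases into vit-6, had a signal of 51.0 with an IDR of 0.0328, and its values were 17.0 in replicate 1 and 40.6 in replicate 2. The value was the higher in replicate 1 at 2 of these 5 peaks and in replicate 2 at 3. The replicates' lists are on their own scales, with median signals of 16.9 in replicate 1 and 18.3 in replicate 2. These counts therefore do not tell which replicate was the stronger at a peak.

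The vit-2 gene held 13 ranked peaks with a median signal of 28.9, above that of 76.1% of other protein-coding genes, and 8 of them exceeded the median of all ranked peaks. High peaks stood near either end, at 108 and 4847 bases, and the intervening peaks had signals from 9.72 to 50.9. The strongest of these had its summit 3287 bases into the gene, with an IDR of 0.137. The single upstream summit, 862 bases before the start, had a signal of 17.8. The annotated gene C42D8.9, on the opposite strand, overlaps the end of vit-2 and held none of the vit-2 summits.

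At vit-6, 12 ranked peaks had a median signal of 43.7, which exceeded that of 98.0% of the other protein-coding genes, and 9 of the 12 exceeded the median of all ranked peaks. Summed over the window, the ranked signal was 79.6 per kb at vit-6, above 99.5% of other genes, and 72.3 per kb at vit-2, above 98.9%, where the median of other genes was 31.9. The signal at vit-6 was thus spread over the whole gene. The peak nearest the end, 5084 bases into the gene, had a signal of 59.9 with an IDR of 0.438, and was seen with 35.9 in replicate 1 but had no peak within 100 bases in the ranked list of replicate 2. This gene also had the strongest upstream summits of the family. One lay 616 bases before the start with a signal of 51.5, at 17.7 in replicate 1 and 28.3 in replicate 2, in sequence of 25.5% GC. The other lay 93 bases before the start with a signal of 41.0, at 17.96 in replicate 1 and 18.5 in replicate 2, inside K07H8.16, an annotated non-coding RNA gene on the opposite strand. Its IDR of 0.347 was far from the threshold.

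At vit-5, 10 ranked peaks had a median signal of 33.1, above that of 88.0% of other genes. The strongest, with its summit 3710 bases into the gene, had a signal of 53.3 and an IDR of 0.0617, at 28.9 in replicate 1 and 35.1 in replicate 2. The next lay 179 bases into the gene with a signal of 50.3 and an IDR of 0.0705, at 18.9 in replicate 1 and 32.8 in replicate 2. Both were above the upper quartile of 47.6 for the strongest peak of a gene, but neither reached an IDR of 0.05. The upstream summit, 331 bases before the start, had a signal of 18.6. A summit in the 3′ untranslated region, 5114 bases into the gene, had a signal of 30.5 and was the only one of the 64 in such a region.

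At vit-1, 13 ranked peaks had a median signal of 27.2 and a narrow upper range. The strongest, 1620 bases into the gene, had a signal of 38.4, at 14.6 in replicate 1 and 15.9 in replicate 2. The peak 114 bases into the gene, the counterpart of the vit-2 main-list peak, had a signal of 35.8 with an IDR of 0.283, at 24.3 in replicate 2 and with no peak within 100 bases in the ranked list of replicate 1. In the compared peak sets behind the conservative list its values were 7.86 and 24.3. At matched places the main-list peak of vit-2 was thus the stronger in the list from both replicates and in replicate 2, with 79.0 and 50.3 at vit-2 and 35.8 and 24.3 at vit-1. This difference was not tested. No ranked summit lay in the 1000 bases upstream of vit-1.

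The neighbours vit-3 and vit-4 had the fewest and weakest peaks. Each had 8 ranked peaks, with a median signal of 13.3 at vit-3 and 11.9 at vit-4, which exceeded those of 12.4% and 10.7% of other protein-coding genes. At vit-3 the strongest peak, 1669 bases into the gene, had a signal of 27.5, and at vit-4 the strongest, 813 bases into the gene, had 33.4. The vit-3 summit 33 bases before the start had a signal of 15.1 and lay in the run of at least 100 bases shared with vit-4. The vit-4 summit 135 bases into the gene had a signal of 9.11 and lay inside F59D8.3, an annotated non-coding RNA gene on the opposite strand. Its single upstream summit, 309 bases before the start, had 6.79. Stronger ranked peaks lay just beyond the windows, with a signal of 40.3 at 57 bases past the end of vit-4 and of 42.5 at 205 bases past the end of vit-3.

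The replicates' own ranked lists gave the same leading genes. In replicate 1 the strongest signal was 43.7 at vit-2, 44.4 at vit-6, 28.9 at vit-5, 21.3 at vit-1 and 15.5 at vit-3, while vit-4 had no ranked peak, and the median of other protein-coding genes was 20.1 with an upper quartile of 25.6. In replicate 2 it was 50.3 at vit-2, 40.6 at vit-6, 35.1 at vit-5, 24.3 at vit-1, 31.3 at vit-3 and 12.9 at vit-4, with a median of 22.2 and an upper quartile of 27.8 over other genes. The replicate 1 value of vit-2 came from its last-exon peak and the replicate 2 value from its first-exon peak. In both replicates vit-2, vit-6 and vit-5 lay above the upper quartile and vit-4 below the median. The gene vit-3 changed sides, below the median in replicate 1 and above the upper quartile in replicate 2. There its value came from a peak close to its 3′ end, which had a signal of 26.1 in the list from both replicates. The number of ranked peaks per gene ran from 0 to 10 in replicate 1 and from 1 to 11 in replicate 2, with vit-4 lowest in both and vit-6 at the top of both, level with vit-2 in replicate 1.

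**Figure D2:**
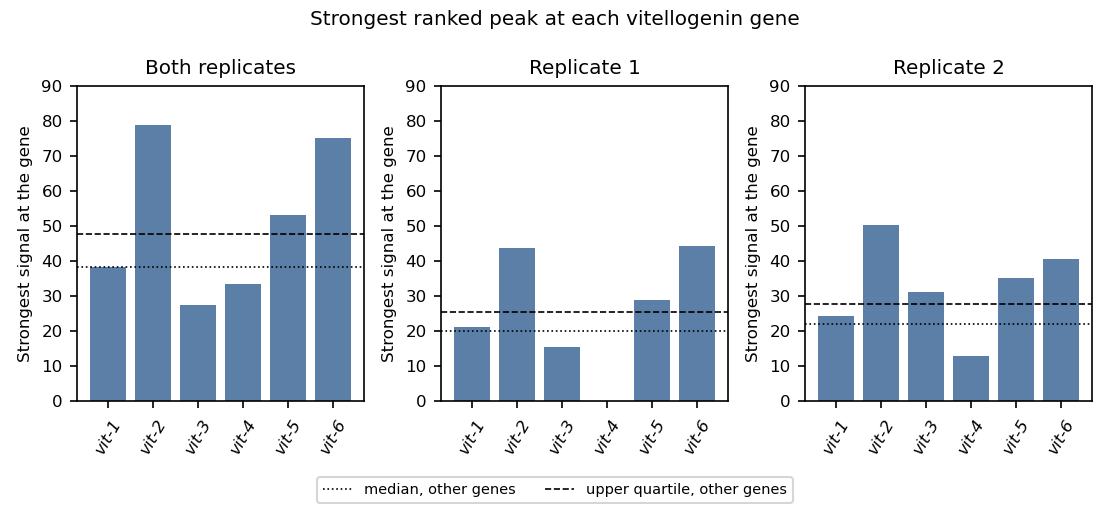
Bars give the signal of the strongest ranked peak at each vitellogenin gene (vertical axis, the authors' signal) in the list from both replicates, in replicate 1 and in replicate 2, without error bars since each bar is 1 value. The dotted and dashed lines are the median and the upper quartile over the other 19967 protein-coding genes in the same list; vit-2, vit-5 and vit-6 lie above the dashed line in all 3 panels, and vit-4 has no bar in replicate 1.

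Peak by peak, many sites were ranked in 1 replicate or in neither. Of the 64 vitellogenin peaks, 15 had a summit within 100 bases in the ranked lists of both replicates. A further 14 had one in that of replicate 1 alone, 15 in that of replicate 2 alone, and 20 in neither. These lists held 58090 peaks in replicate 1 and 61509 in replicate 2, against 120637 in the list from both. Many peaks of any gene must therefore lack a counterpart, and the same counts over all ranked peaks were not made. The ranked list behind the conservative list gives, for each peak, its signal in a pair of compared peak sets whose columns carry no sample name. Of that list's 121039 rows, 53784 held in the first set a peak identical in position and signal to one of replicate 1's ranked list, and none to one of replicate 2's. In the second set 56388 rows held such a peak of replicate 2's list, and none held one of replicate 1's. At the vitellogenins 58 peaks had both values, and the ratio of the first to the second set had a median of 1.08 and ran from 0.324 to 6.86. Over all peaks of that list the median ratio was 0.912 (interquartile range 0.568 to 1.47). The first value was the higher for 31 of the 58, and 24 of the 58 pairs lay within 1.5-fold. Neither count was made over all peaks of that list, so neither sets the vitellogenins apart. The pairs are not all separate measurements, since 8 of the 58 peaks had both values in common with another vitellogenin peak. Further peaks had 1 value in common with another. The vit-1 peaks 114 and 316 bases into the gene, for example, both had 24.3 in the second set. Of the 64 peaks, 22 stood at the highest IDR that occurs in the list, against 39.3% of all ranked peaks.

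**Figure D3:**
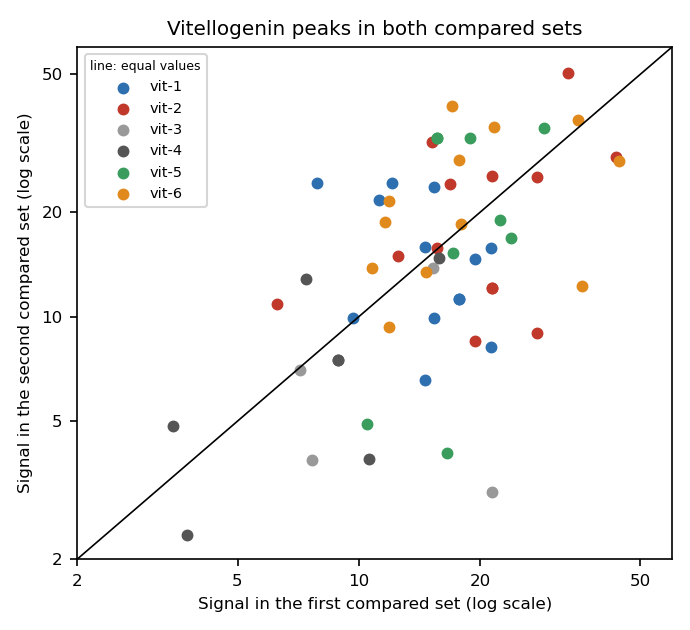
Each point is 1 of the 58 vitellogenin peaks with both values, coloured by gene, with the signal in the first compared set on the horizontal axis and in the second on the vertical axis, both on log scales. The line marks equal values. Points scatter to both sides of it, from 0.324-fold to 6.86-fold, with the vit-2 peak of 33.1 and 50.3 and the vit-6 peak of 35.0 and 37.0 at the upper right and many vit-3 and vit-4 points at the lower left.

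The vitellogenin windows are mostly coding sequence, and so were the summits in them. Of the 64, 55 were in coding exons, 2 in introns, 1 in a 3′ untranslated region and 6 upstream. The coding share was 85.9% of the summits, and coding sequence made up 78.1% of the windows' bases, so the share was near what the make-up of the windows gives. Over the whole genome 31.8% of ranked summits lay in coding exons. The 55 coding summits had a median of 27.5 in signal, and the median was 25.1 for the 38296 other ranked summits in coding exons. The whole set of 64 had a median of 26.6, against 23.5 for all ranked peaks, and 34 of the 64 exceeded 23.5. By gene this held for 7 of 13 peaks at vit-1, 8 of 13 at vit-2, 2 of 8 at vit-3, 1 of 8 at vit-4, 7 of 10 at vit-5 and 9 of 12 at vit-6. The median signal of a gene ran from 11.9 at vit-4 to 43.7 at vit-6, on both sides of the median over all ranked peaks. Ranked peaks were spaced at 1.72 per kb of vitellogenin window, against 1.20 per kb over the genome and a median of 1.33 per kb over the windows of other protein-coding genes.

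The vitellogenin summits lay in sequence richer in GC than most, and the part of base composition in their signals was not tested. The 200 bases around the summits had a median GC content of 48% at the vitellogenins and of 38% over all ranked peaks. Among coding summits the medians were 48.5% at the vitellogenins and 41% at other genes. Within coding summits of 45 to 50% GC, the median signal was 28.9 for 29 vitellogenin peaks and 28.2 for 6771 others. Within those of 50 to 60% GC, it was 28.9 for 18 vitellogenin peaks and 31.8 for 3268 others. The vitellogenin median was thus the same in both ranges, a little above that of other coding peaks in the lower range and below it in the higher one. By gene, the median GC content around summits was 49.5% at vit-1, 49.25% at vit-6 and 49% at vit-2. It was 46.25% at vit-4, 45% at vit-5 and 43.5% at vit-3. In the same order of genes, the median signals were 27.2, 43.7, 28.9, 11.9, 33.1 and 13.3. The windows of the vit-2 and vit-6 peaks on final lists had 57% and 50% GC.

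Each gene body was divided into 3 equal parts. In the list from both replicates, the strongest peak lay in the first part for 5 of the 6 genes. For the other 1, vit-5, it lay in the last part. Of 2137 protein-coding genes of 4000 to 6500 bases, 27.3% had their strongest peak in the first part, 25.6% in the middle part, 30.4% in the last part and 16.8% upstream. The place within that part varied, at 108 bases in vit-2, 813 in vit-4, 885 in vit-6, 1620 in vit-1 and 1669 in vit-3. The replicates' own lists did not keep these places. In replicate 1 the strongest peak lay within 100 bases of 2300 in vit-1, 4847 in vit-2, 953 in vit-3, 3710 in vit-5 and 885 in vit-6. In replicate 2 it lay within 100 bases of 114 in vit-1, 108 in vit-2 and 5029 in vit-3. For vit-4, vit-5 and vit-6 the places in replicate 2 were 3429, 3710 and 2631. Within 300 bases of the start, a limit chosen after the values were seen, the strongest peaks had signals of 79.0 at vit-2, 50.3 at vit-5, 46.5 at vit-6, 35.8 at vit-1, 15.1 at vit-3 and 9.11 at vit-4. The order below vit-2 depends on this limit. Within 1000 bases of the start the strongest peaks had 79.0 at vit-2, 75.1 at vit-6, 50.3 at vit-5, 35.8 at vit-1, 33.4 at vit-4 and 19.5 at vit-3. Within 500 bases of the end, also chosen afterwards, they had 66.4 at vit-2, 59.9 at vit-6, 30.5 at vit-5, 27.2 at vit-1 and 26.1 at vit-3, and vit-4 had none.

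The vitellogenins are close copies of one another in part of the family, and the low genes were the ones with little unique sequence. The coding sequences of vit-3, vit-4 and vit-5 were 97.7 to 99.0% identical, those of vit-1 and vit-2 were 93.9% identical, and those of the 2 groups were 70.1 to 71.0% identical to each other. The coding sequence of vit-6 was 58.9 to 59.8% identical to the others. The 1000 bases upstream were 53.7 to 55.9% identical in every pair. The share of 31-base words of the gene found once in the genome was 16.1% at vit-4, 19.5% at vit-3, 38.6% at vit-5, 76.0% at vit-2, 76.7% at vit-1 and 100% at vit-6. Reads that fall in the shared stretches cannot be placed with certainty, and their treatment by the authors was not given in the sources used here. Signals of vit-3, vit-4 and vit-5, and in part of vit-1 and vit-2, are therefore uncertain, and only vit-6 is free of this limit.

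Of the 64 vitellogenin peaks, 19 lay in unique sequence, taken as windows of 200 bases in which at least 95% of the words were found once, against 84.6% of all ranked peaks. Of these 19, 12 were at vit-6, 3 at vit-2, 2 at vit-1 and 1 each at vit-4 and vit-5, and vit-3 had none. The median signal was 31.3 in unique sequence, 27.5 for the 23 vitellogenin peaks with 50 to 95% of words unique, and 11.99 for the 22 with under 50%. Over all ranked peaks the same medians were 23.5, 24.7 and 21.2. The vitellogenin medians thus fell with the share of unique sequence over a wider range than those of all ranked peaks did, although vit-5 kept signals of 50.3 and 53.3 with 48.8% and 48.2% of words unique. With unique sequence alone, the strongest peak left at vit-5 was the upstream one of 18.6, above that of 14.02% of other genes, so the high standing of vit-5 rests on peaks in repeated sequence. Gene and uniqueness went together here, so that their parts in the low values of vit-3 and vit-4 cannot be told apart. The main-list peak of vit-2 and every peak of vit-6 lay in fully unique sequence, while the last-exon peak of vit-2 had 91.8% of words unique.

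**Figure D4:**
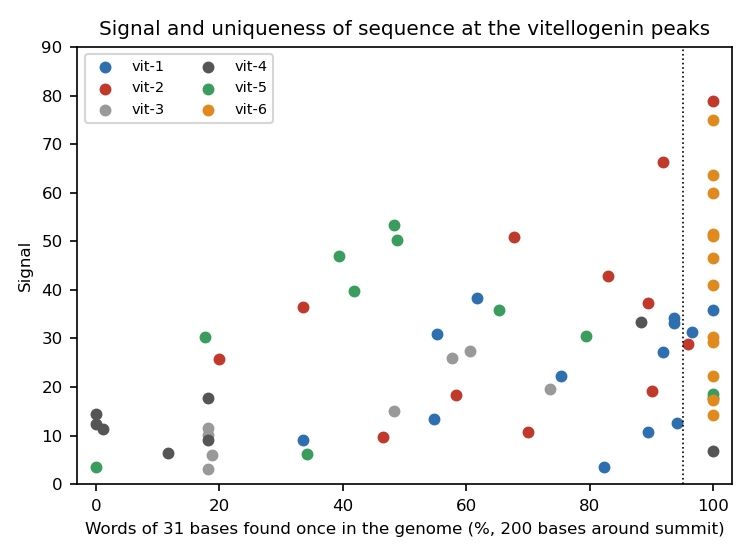
Each point is 1 of the 64 vitellogenin peaks, coloured by gene, with the share of 31-base words found once in the genome over 200 bases around the summit on the horizontal axis (percent) and the authors' signal on the vertical axis. The dotted line is the limit of 95% for unique sequence; median signal was 31.3 for the 19 peaks to its right and 11.99 for the 22 peaks under 50%, and all vit-6 points stand at 100%.

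Beside other lists of genes, the vitellogenins lay between ribosomal protein genes and the rest. These lists are by symbol, and windows of 1000 bases on either side of the start alone were used, so that length was equal. The median of the strongest signal was 43.0 over the 6 vitellogenins, 49.95 over 81 cytoplasmic ribosomal protein genes, 38.7 over 156 cuticle collagen genes, 32.3 over 31 major sperm protein genes and 32.6 over all other protein-coding genes. Of the 6 vitellogenins, 3 exceeded the upper quartile of other genes in this window, 41.7, as did 59 of 81 ribosomal protein genes, 59 of 156 collagen genes and 3 of 31 sperm protein genes. Ribosomal protein genes are active in nearly all cells, collagen genes in the epidermis, and sperm protein genes in the germ line while it makes sperm. With whole windows, main-list peaks stood at 1 of 6 vitellogenins, 12 of 81 ribosomal protein genes, 2 of 156 collagen genes and 0 of 31 sperm protein genes. The share over all protein-coding genes was 2.34%. Whole windows are unlike in length, with medians of 6196 bases at the vitellogenins, 2001 at ribosomal protein genes, 2220 at collagen genes and 2001 at sperm protein genes. A median over 6 genes with signals from 19.5 to 79.0 moves with any 1 of them.

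A list of 12 intestinal genes was set beside the vitellogenins, since the intestine makes the yolk. None of the 12 had a main-list or conservative-list peak, against 2.34% and 2.11% of protein-coding genes. With shares this low, a count of none in 12 does not set these genes apart. Their strongest signal in the start window had a median of 30.9, and 4 of the 12 exceeded the upper quartile. These were elt-2, the GATA factor that maintains intestinal gene expression, with 49.97, act-5, an actin of the microvilli, with 49.93, ifb-2, an intermediate filament protein of the apical gut surface, with 47.8, and ges-1, a gut esterase, with 47.5. The other 8 lay between 20.7 and 35.3. The start-window signals of vit-2 and vit-6, 79.0 and 75.1, exceeded all 12, and that of vit-5, 50.3, exceeded all 12 by little.

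Genes that act with or upon the vitellogenins were described in the same way. Of 15 such genes, 2 had a main-list peak in their whole window, against 2.34% of protein-coding genes. These were lin-29, a zinc finger factor of the larval-to-adult switch, and daf-2, the insulin and IGF receptor. Their strongest signals were 79.3 at lin-29 and 80.5 at daf-2. Whole windows of this list had a median length of 8551 bases, longer than the 6196 of the vitellogenins, and 13 of the 15 exceeded the upper quartile for the strongest peak, against 3 of 6 vitellogenins. In start windows of equal length the median was 32.5 and 4 of the 15 exceeded the upper quartile. These were pqm-1, a zinc finger factor that acts opposite daf-16, with 59.4, rict-1, the Rictor subunit of a TOR complex, with 56.5, sgk-1, a kinase downstream of it, with 56.4, and elt-2 with 49.97, which is also on the intestinal list. The yolk receptor gene rme-2 had 36.0 in its start window, and rme-1, which acts in receptor recycling, had 8.19. The gene dsc-4, whose product loads lipid onto lipoproteins, had 25.3. Of the 8 transcription factors on the list, 4 lay above the median of 32.6 for all other protein-coding genes, pqm-1 and elt-2 with the values above, lin-29 with 40.8 and daf-16, the FOXO factor of insulin signalling, with 33.9. The other 4 lay below it, with 32.5 at ceh-60, 30.7 at elt-7, 30.5 at mab-3 and 28.4 at unc-62. At ceh-60 a peak outside the start window reached 71.9 without entering the main list.

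**Figure D5:**
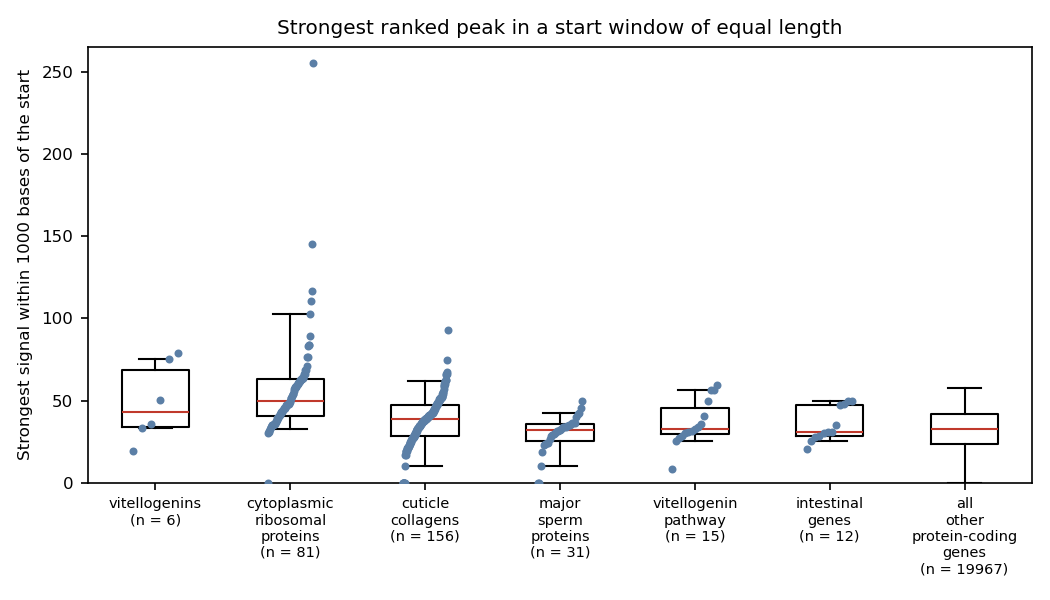
Points give the strongest ranked signal within 1000 bases of the start (vertical axis) for each gene of a list, and boxes give the median (red) and quartiles with whiskers to the 5th and 95th percentiles; for all other protein-coding genes only the box is drawn. The 6 vitellogenins spread from 19.5 to 79.0 around a median of 43.0, against medians of 49.95 for ribosomal protein genes and 32.6 for all other genes.

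When protein-coding genes were ordered by their strongest ranked peak, vit-2 stood 235th and vit-6 stood 321st. The 3 genes directly above vit-2 were ced-5 and F01D4.5, which hold the same peak at a signal of 79.1, and hil-3, a linker histone gene, at 79.0. The 3 directly below were nrde-2 at 78.9, which acts in nuclear RNA interference, F28F8.7 at 78.9 and C11E4.8 at 78.7. Likeness here is the difference in signal, 1 value per gene over both samples. All of these but F28F8.7 had a main-list peak. The summits at F28F8.7 and C11E4.8 had 22.4% and 9.41% of words unique, against 100% at vit-2. By the strongest peak of each gene in a replicate's own list, these genes were not ordered alike. The gene vit-2 had 43.7 in replicate 1, from its last-exon peak, and 50.3 in replicate 2, while the first-exon peak that gave it its place had 33.1 in replicate 1. The gene ced-5, which acts in the engulfment of dying cells, had 33.1 in replicate 1 and 40.1 in replicate 2. The gene hil-3 had 45.7 in replicate 1 and 30.8 in replicate 2, and nrde-2 had 45.9 in replicate 1 and 38.4 in replicate 2. Thus hil-3 and nrde-2 were above vit-2 in replicate 1, and all 6 neighbours were below it in replicate 2.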

How the data were processed

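BED-1 ChIP-seq peaks came from 2 biological replicates of 1 group, grouped by the labels. The authors deposited ranked and final peak lists per sample and from both samples; each peak has the authors' signal, on a scale not given in the sources used here. Deposited ranked lists hold the −log10 of the global IDR, and deposited final lists hold the authors' score, derived from it. Aligner and peak caller were not given in the sources used here, and without read counts the depth is unknown. Coordinates are 1-based, in ce11. Genes were from Ensembl release 115. A summit was assigned to a gene if inside it or within 1000 bases of its start, which can give 1 peak to several genes. An IDR of 0.01 or less was held by 704 ranked peaks, of which the main list is a shorter selection of 589 made by the authors. Uniqueness is the share of 31-base words found once in the genome, and identities came from global alignment with edlib 1.3.9.post1. Python 3.11.15, numpy 2.4.6 and pandas 2.3.3 were used. The scripts were tested on simulated data.

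The members and the gene lists were chosen with earlier results of these data known. The genes named were the 6 members, the pathway and intestinal lists where a value is described, the 3 protein-coding genes on either side of vit-2 by strongest signal, and genes that hold or border a member summit. The alternatives were other windows, any overlap, the conservative lists, each replicate alone, unique sequence, an IDR of 0.05, close summits merged, and comparison genes of like length or the same chromosome. The start window alone and the median signal of a gene were added after seeing the data. Labels, file headers and notes gave no batch.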

Additional observations from a re-analysis of the deposited data

How the results depend on the processing

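The count of 64 ranked peaks at the vitellogenins ran from 34 to 37 with 1 replicate left out, and was 19 in unique sequence alone. With 1 replicate left out, the list read was the other replicate's own. It held 58090 peaks for replicate 1 and 61509 for replicate 2, against 120637 from both, so fewer peaks were there to count. The 1 main-list peak became 2 in the conservative list and 5 at an IDR of 0.05. It became 0 in both lists with 1 replicate left out (0 to 0), where the final lists held 91 and 99 peaks against 589. The median signal of 26.6 became 23.6 with 2000 bases around the start and 31.3 in unique sequence alone, and ran from 17.7 to 21.7 with 1 replicate left out, where the lists are on their own scales. These medians moved by more than the spread between the replicates' medians (SD 2.81, n = 2), and the cause was not tested. The number of vitellogenins above the upper quartile of protein-coding genes, 3 in the list from both replicates, ran from 2 to 4 over the alternatives run.

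Over 13 alternatives the share of other protein-coding genes with a weaker strongest peak stayed between 97.0% and 99.1% for vit-6. It ran from 76.1% to 99.4% for vit-2, where the lowest value was that of the median signal of a gene in place of the strongest, and from 33.6% to 70.7% for vit-1. For vit-5 it ran from 14.02%, in unique sequence alone, to 92.7%, for vit-3 from 0% to 85.5%, and for vit-4 from 0% to 54.5%. Depth is unknown, so what it limits cannot be stated. Reads in sequence shared among vit-1 to vit-5 limit the values of peaks in such sequence and of genes that hold it. The main-list peak of vit-2 lay in fully unique sequence. With 2 replicates of 1 group, no difference between genes was tested.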
